A study of Mus musculus with 32 samples.

Results

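Nuclear copies of mitochondrial DNA were followed here as 10 annotated pseudogenes of the 55573 genes in the count table: Gm10925, Gm28437, Gm29216, Gm28661, Gm28439, Gm13340, Gm10222, Gm13341, Gm28438 and Gm13339. They were chosen because they held a large share of all counts and more of it in neurites than in soma, so the share and the neurite to soma ratio are given below as descriptions with no test. Hippocampal neurons of neonate mice were grown for 15 days on a microporous membrane, and RNA from above it (soma) and below it (neurites) was sequenced. Both genotypes, WT (C57BL/6) and Mettl3 KO (neurons of Mettl3 Flox/Flox mice, labelled Mettl3-/-), received AAV particles at DIV 7 that express Cre and dTomato from the neuronal hSyn promoter. METTL3 is the methyltransferase that places m6A on mRNA. Activity was silenced in all inserts for 16 h (tetrodotoxin at 1 µM, D-AP5 at 50 µM), and the neurons were then left untreated (Ctrl) or depolarised with 55 mM KCl for 2 h. This gave 8 groups of 2 libraries: soma and neurites of WT Ctrl, WT KCl, Mettl3 KO Ctrl and Mettl3 KO KCl neurons, where the soma and neurite libraries with the same number were taken as 1 insert. The duplicates came from distinct litters, each with its animals pooled, and control and KCl inserts from the same litter. Only the promoter limits Cre to neurons, glia of the culture are not targeted, and the soma fraction can also hold neurites. The Mettl3 KO and the strain cannot be told apart, since every Mettl3 KO insert came from the floxed strain.

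Mitochondria carry a small circular genome that encodes subunits of respiratory complexes and the ribosomal RNAs and tRNAs needed to translate them inside the organelle. The mRNAs are transcribed and translated within mitochondria, which travel along axons and dendrites, and most carry a short poly(A) tail. Pieces of this genome have been copied into nuclear chromosomes, where they are annotated as pseudogenes because the nuclear genetic code reads them differently and they lack promoters of nuclear genes. A short read from a stretch that is the same in both genomes does not show which of them it came from.

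The 10 pseudogenes lay in 2 stretches of the nuclear genome (GRCm38, the build of the files). On chromosome 1, from 24611535 to 24616188 on the minus strand, 4654 aligned bases corresponded to mitochondrial positions 6390 to 11042 with 2 substitutions and 1 gap base (99.9% identity). This stretch holds 7 of the pseudogenes. On chromosome 2, from 22587288 to 22590534 on the minus strand, 3260 aligned bases corresponded to mitochondrial positions 4441 to 7699 with 72 substitutions and 14 gap bases (97.4% identity), and the other 3 pseudogenes lie there. The chromosome 2 stretch is inside Myo3a, a myosin gene, in which the 3 pseudogenes overlap 0 exons and run on the opposite strand. The following windows of 30 bases, read from GRCm38 in the sense of the mitochondrial gene, show how alike the copies are, with capitals marking bases that differ from mitochondrial DNA.
start of mt-Atp6, mitochondrial DNA, chrMT:7927-7956: atgaacgaaaatctatttgcctcattcatt
start of mt-Atp6, Gm10925, chr1:24614622-24614651, minus strand: atgaacgaaaatctatttgcctcattcatt
mt-Co2, mitochondrial DNA, chrMT:7484-7513: gacgtcctccactcatgagcagtcccctcc
mt-Co2, Gm28661, chr1:24615065-24615094, minus strand: gacgtcctccactcatgagcagtcccctcc
mt-Co2, Gm13341, chr2:22587474-22587503, minus strand: gaTgtTctccactcatgagcCAtcccctcA
mt-Co1, mitochondrial DNA, chrMT:6390-6419: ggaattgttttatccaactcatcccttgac
mt-Co1, Gm29216, chr1:24616159-24616188, minus strand: ggaTttgttttatccaactcatcccttgac
mt-Co1, Gm13340, chr2:22588556-22588585, minus strand: ggaattgttCtatccaactcatcccttgac
mt-Nd2, mitochondrial DNA, chrMT:4665-4694: taggaggccttccaccactaacaggattct
mt-Nd2, Gm13339, chr2:22590281-22590310, minus strand: taggaggTcttccaccactaacaggattTC
The mt-Co2 and mt-Nd2 windows are those with the densest differences of the chromosome 2 copies, and the mt-Co1 window holds the only substitution of Gm29216.

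By the mitochondrial gene they copy, the pseudogenes cover subunits of 3 respiratory complexes. Of cytochrome c oxidase, the terminal enzyme of the chain, mt-Co1 is copied in Gm29216 (chromosome 1, 24615706 to 24616197, 492 bases, the 3′ part of the gene) and in Gm13340 (chromosome 2, 22588103 to 22589647, 1545 bases, the whole gene). Likewise, mt-Co2 is copied in Gm28661 (chromosome 1, 24614885 to 24615565, 681 bases) and Gm13341 (chromosome 2, 22587291 to 22587962, 672 bases), and mt-Co3 in Gm28437 (chromosome 1, 24613189 to 24613971, 783 bases). Of ATP synthase, mt-Atp6 is copied in Gm10925 (chromosome 1, 24613974 to 24614651, 678 bases). Of complex I, the NADH dehydrogenase, mt-Nd2 is copied in part in Gm13339 (chromosome 2, 22590024 to 22590533, 510 bases), mt-Nd3 in Gm28438 (chromosome 1, 24612775 to 24613119, 345 bases), mt-Nd4l in Gm10222 (chromosome 1, 24612407 to 24612700, 294 bases) and part of mt-Nd4 in Gm28439 (chromosome 1, 24611535 to 24612410, 876 bases). All 10 are annotated as unprocessed pseudogenes of 1 exon on the minus strand. Together they match 8 of the 13 protein-coding genes and 5708 of the 16299 bases (35.0%) of the mitochondrial genome. The 5 genes without a copy among them are mt-Atp8, mt-Nd1, mt-Nd5, mt-Nd6 and mt-Cytb.

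Of the 7 pseudogenes on chromosome 1, Gm29216 had 1 substitution against mitochondrial DNA over its aligned bases and the others had 0. The copies on chromosome 2 were more diverged: Gm13340 had 37 substitutions (97.6% identity), Gm13341 had 16 substitutions and 12 gap bases (95.9%) and Gm13339 had 17 substitutions (96.7%). The sequenced reads were 50 bases long, so the share of 50-base stretches of a pseudogene that also occur in mitochondrial DNA bears on the counts. It was 97.1% to 100% for the 7 pseudogenes on chromosome 1, 36.0% for Gm13341, 27.5% for Gm13340 and 17.6% for Gm13339. Between the 2 nuclear stretches, 35.0% of the 50-base stretches of Gm28661 and 36.0% of those of Gm13341 were shared, as were 17.2% of Gm29216 and 5.08% of Gm13340. By the header of the count table, fragments that align to several places were counted at each of them and strand was not used. For these 10 pseudogenes, a count therefore does not show whether a fragment came from the nuclear copy, from the other copy or from mitochondrial RNA. The 37 mitochondrially encoded genes themselves were listed at 0 counts in all 16 libraries. By counting error alone, a count of 0 allows a share of at most 8.88e-06% in the library with the lowest total (3 counts). That limit is on counts assigned to these genes and sets none on mitochondrial RNA, since why they are at 0 is not known.

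The total per library was 33789183 to 71394235 counts. Mettl3 was at 9.04 to 16.7 CPM (counts relative to the TMM-scaled library total, the level used throughout) in the 8 WT libraries and at 3.91 to 10.97 CPM in the 8 Mettl3 KO libraries. The ranges overlapped over all libraries but not within a compartment, and counts over the whole gene include exons outside the deleted part. The spread between replicates was larger in Mettl3 KO, with a common biological coefficient of variation of 0.507 against 0.152 in WT. The summed neuronal markers (10 genes, 0 of them at 0 in any library) ran from 5203 to 13135 CPM in WT and from 2031 to 8639 CPM in Mettl3 KO. KCl-treated Mettl3 KO insert 1 stood apart: its 11 astrocyte markers summed to 10013 CPM in soma and 19491 CPM in neurites, against 1202 to 6843 CPM in the other 14 libraries. Its 7 oligodendrocyte-lineage markers summed to 3605 and 7261 CPM, against at most 172 CPM elsewhere. Its 7 microglial markers (236 and 173 CPM) and 12 fibroblast and vessel markers (142 and 763 CPM) were also the highest, with 0 markers of any list at 0. Its 10 neuronal markers, at 2045 and 2031 CPM, were the lowest of all libraries. Untreated Mettl3 KO insert 2 stood apart in the make-up of the pseudogene counts, as described below, and the tests of the 10 pseudogenes that turn on either insert are also given without it.

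The 10 pseudogenes held 1.35% to 9.05% of all counts in a library. In WT soma the share was 3.88% and 3.4998% in Ctrl and 3.62% and 3.497% in KCl (replicates 1 and 2), and in WT neurites 7.25% and 9.05% in Ctrl and 7.44% and 6.37% in KCl. The 4 WT neurite libraries were all above the 4 WT soma libraries. In Mettl3 KO soma the share was 4.97% and 1.35% in Ctrl and 1.84% and 2.53% in KCl, and in Mettl3 KO neurites 6.50% and 5.55% in Ctrl and 1.92% and 4.06% in KCl. The lowest neurite share was that of KCl-treated Mettl3 KO insert 1, the insert with the highest glial markers, and their part in it was not tested. The 95% Wilson intervals of these shares reach at most 0.00911 percentage points to either side and cover counting error only, so the spread between inserts is the larger error. In all 8 inserts the neurite share was above the soma share, by 1.05 times in KCl-treated Mettl3 KO insert 1, by 1.31 to 2.59 times in 6 inserts and by 4.11 times in untreated Mettl3 KO insert 2.

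**Figure D1:**
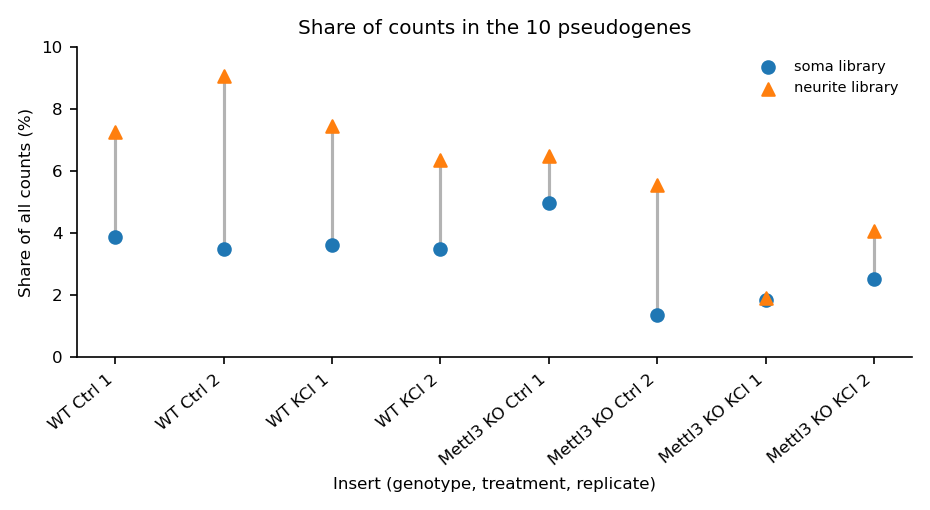
The share of all counts of a library (%, vertical axis) in the 10 pseudogenes is drawn for each insert (horizontal axis: genotype, treatment, replicate), with circles for soma, triangles for neurites and a line joining the 2 libraries of an insert. The triangle lies above the circle in all 8 inserts, from 1.92% against 1.84% in Mettl3 KO KCl 1 to 5.55% against 1.35% in Mettl3 KO Ctrl 2.

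Gm10925, the copy of mt-Atp6, had the highest mean count of all 55573 genes. Gm28437 (mt-Co3) ranked 3, Gm29216 (mt-Co1) 4, Gm28661 (mt-Co2) 6 and Gm28439 (mt-Nd4) 13. At the other end, Gm28438 (mt-Nd3) ranked 2063 and Gm13339 (mt-Nd2) 2591.5, a tied rank. In CPM, Gm10925 was at 11951 and 9823 in WT soma Ctrl, 12137 and 12228 in WT soma KCl, 27984 and 40302 in WT neurites Ctrl and 29754 and 28174 in WT neurites KCl. In Mettl3 KO it was at 14885 and 2639.5 in soma Ctrl, 5114 and 7844 in soma KCl, 22372 and 17336 in neurites Ctrl and 6323 and 16429 in neurites KCl. The soma and neurite libraries did not overlap in WT, while in Mettl3 KO they did. As a ratio, the 2 replicates of Mettl3 KO soma Ctrl were further apart than the 2 replicates of any WT group.

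Per length, the order of the median levels over the 16 libraries was Gm10925 (19995 CPM per kb), Gm29216 (12428), Gm28437 (11035), Gm28661 (7179), Gm28439 (3919), Gm10222 (3450.0), Gm13341 (1323), Gm13340 (1016), Gm28438 (330.02) and Gm13339 (167). Gm10925 was above Gm29216 in 16 of 16 libraries. Gm29216 was above Gm28437 in 10 of 16 and Gm13341 above Gm13340 in 9 of 16, so the order within these 2 pairs did not hold across libraries. Gm28661 was above Gm28439 in 15 of 16, and the other neighbours kept their order in 16 of 16. Per length, the median of Gm28438 was under that of all other pseudogenes on chromosome 1, although 99.0% of its 50-base stretches are in mitochondrial DNA.

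The make-up of the pseudogene counts was alike in 15 of the 16 libraries. In these, Gm10925 took 31.2% to 38.9% of the counts of the 10, Gm28437 18.0% to 26.0%, Gm29216 11.2% to 20.3%, Gm28661 9.27% to 13.8% and Gm28439 6.11% to 9.73%. Mettl3 KO soma Ctrl replicate 2 differed from all of these: Gm28439 took 28.0% and its neighbour Gm10222 8.84%, whereas Gm10925 took 22.8% and Gm28661 3.31%. In CPM, Gm28439 was at 4363 and 3245 in the 2 Mettl3 KO soma Ctrl libraries and Gm28661 at 4832 and 384. The copy of mt-Co2 was thus far lower in replicate 2, and that of mt-Nd4 only moderately. Gm28439 and Gm10222 overlap by 4 bases and are the copies of mt-Nd4 and mt-Nd4l, which mitochondria transcribe as 1 mRNA. Their levels over the 16 libraries correlated at r = 0.991 (Pearson, log2 CPM, a description over libraries that share genotype, compartment and depth). A smaller departure was that of WT soma KCl replicate 1, in which Gm29216 took 18.4% against 11.2% to 11.96% in the other WT soma libraries.

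**Figure D2:**
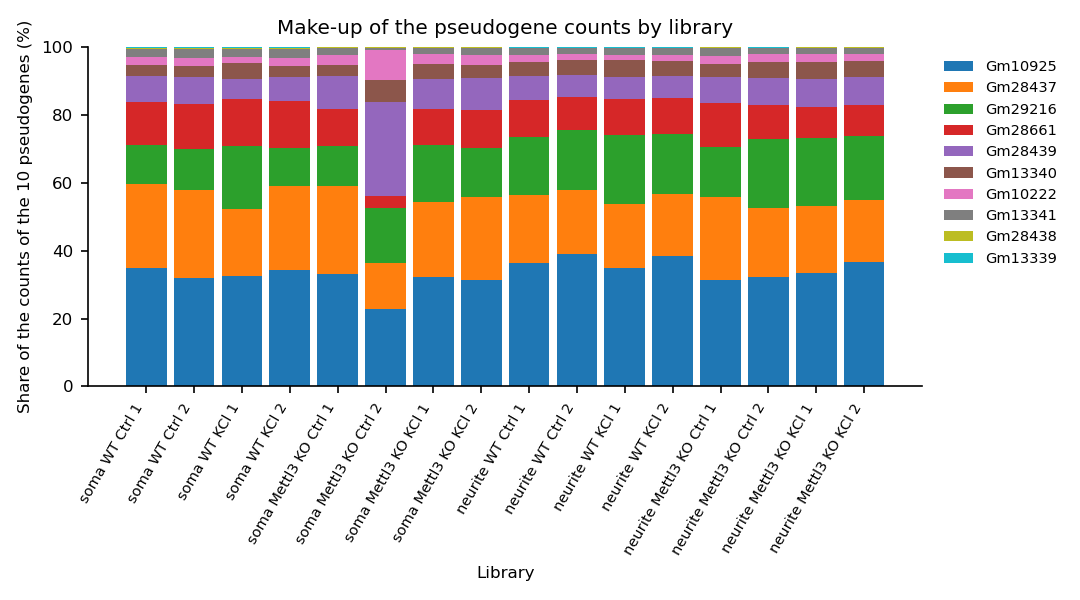
Each bar is a library (horizontal axis, soma libraries to the left and neurites to the right) and is split into the shares of the 10 pseudogenes in their summed counts (%, vertical axis). The bar of soma Mettl3 KO Ctrl 2 stands apart, with 28.0% in Gm28439 and 3.31% in Gm28661.

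The genes mt-Co1 and mt-Co2 are copied on both chromosomes, which allows the counts of a near-identical and of a diverged copy to be compared in the same library. For mt-Co2, the count of Gm13341 (chromosome 2) was 17.6% to 19.2% of that of Gm28661 (chromosome 1) in all 16 libraries, while the count of Gm28661 itself ranged 20.5-fold. In the lowest library, Mettl3 KO soma Ctrl replicate 2, 4183 counts stood against 21822, and in the highest, WT neurites Ctrl replicate 1, 83151 against 447680. The ratio of the copies was close to constant whatever the compartment, treatment or genotype. For mt-Co1, the count of Gm13340 was 24.1% to 28.7% of that of Gm29216 in 15 libraries and 39.8% in Mettl3 KO soma Ctrl replicate 2. These pairs share 50-base stretches and their fragments can be counted at both places, and the part of shared fragments in the ratios was not tested.

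Beyond the 10 pseudogenes, 48 other annotated genes had exons with at least 100 bases aligned to mitochondrial DNA, at 71.2% to 95.2% identity. Of these, 18 reached 10 counts on average. Over all 58 aligned genes, identity and level per length rose together (Spearman rho 0.819), and so they did over the 48 others (rho 0.685), as a description across genes that are not independent. The 3 with the highest mean counts were Gm20594 (6002 counts, annotated as protein-coding, aligned to mt-Rnr2, the large mitochondrial ribosomal RNA, at 88.4% identity), Gm11407 (2215 counts, mt-Nd5, 92.4%) and Gm4076 (2084 counts, mt-Nd5, 95.2%). The mean counts of the 10 pseudogenes were from 4312 for Gm13339 to 787401 for Gm10925.

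**Figure D3:**
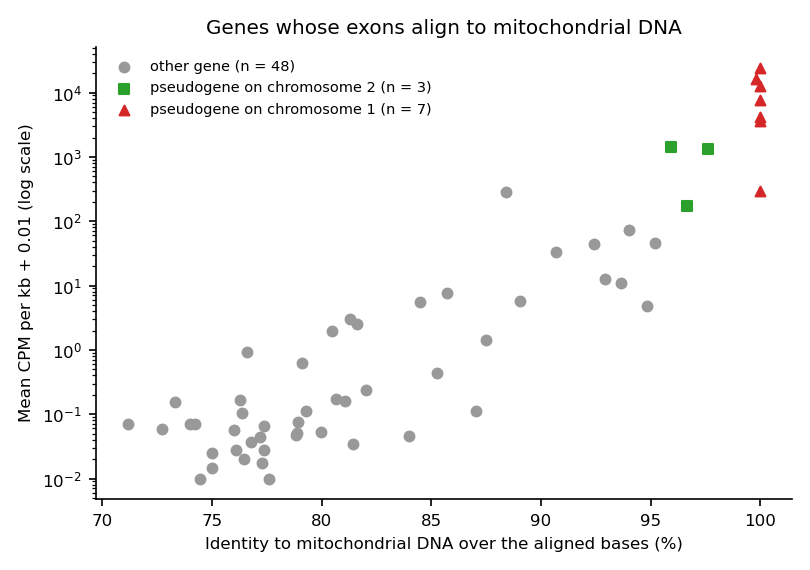
Each point is a gene whose exons align to mitochondrial DNA, by identity over the aligned bases (%, horizontal axis) and mean CPM per kb over the 16 libraries (vertical axis, log scale, 0.01 added). The 7 pseudogenes on chromosome 1 sit at 99.8% to 100% identity, the 3 on chromosome 2 at 95.9% to 97.6%, and the 48 other genes at 95.2% or lower.

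Neurites against soma was the contrast the pseudogenes were chosen by, and its values are given without a test. The fitted log2 ratio was above 0 for all 10 in each of the 4 conditions. Its median over the 10 was 1.13 in WT Ctrl, 0.85 in WT KCl, 1.25 in Mettl3 KO Ctrl and 0.43 in Mettl3 KO KCl, beside a median over all genes tested of 5.83e-05, −0.04, −0.05 and 0.08. Over the single inserts, 78 of 80 ratios were above 0, and both exceptions were of Gm28438, in WT KCl insert 2 (−0.10) and Mettl3 KO KCl insert 2 (−0.02). In bulk RNA, fewer cells or neurites of a kind and less RNA in each cannot be told apart.

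The pseudogenes differed among themselves in this ratio. In all 4 WT inserts the highest log2 ratio was that of Gm29216, the copy of mt-Co1 (1.73 and 2.31 in Ctrl, 1.35 and 1.71 in KCl), and the other mt-Co1 copy, Gm13340, ran close to it (1.34 to 2.15). The lowest was that of Gm28438, the copy of mt-Nd3 (0.06 and 0.58 in Ctrl, 0.44 and −0.10 in KCl). The other 7 lay between, with 0.57 to 2.04. In Mettl3 KO the ends of the order varied between inserts. KCl insert 2 had the same ends as the WT inserts (Gm29216 at 1.21, Gm28438 at −0.02), while untreated insert 2 had 3.82 for Gm28661 and 3.73 for Gm13341, the copies of mt-Co2, but 0.41 for Gm28439 and 0.23 for Gm10222. Untreated insert 1, with 0.92, 0.98, 0.32 and 0.22 for the same 4, did not show the high values of the mt-Co2 copies. Without Mettl3 KO soma Ctrl replicate 2, the median log2 ratio of the 10 in Mettl3 KO Ctrl was 0.53 instead of 1.25, and without replicate 1 of that group it was 3.05. The lowest median of an insert, 0.24, was that of KCl-treated Mettl3 KO insert 1, and without its neurite library the Mettl3 KO KCl median rose from 0.43 to 0.94, whereas without neurite replicate 2 it fell to −0.21.

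**Figure D4:**
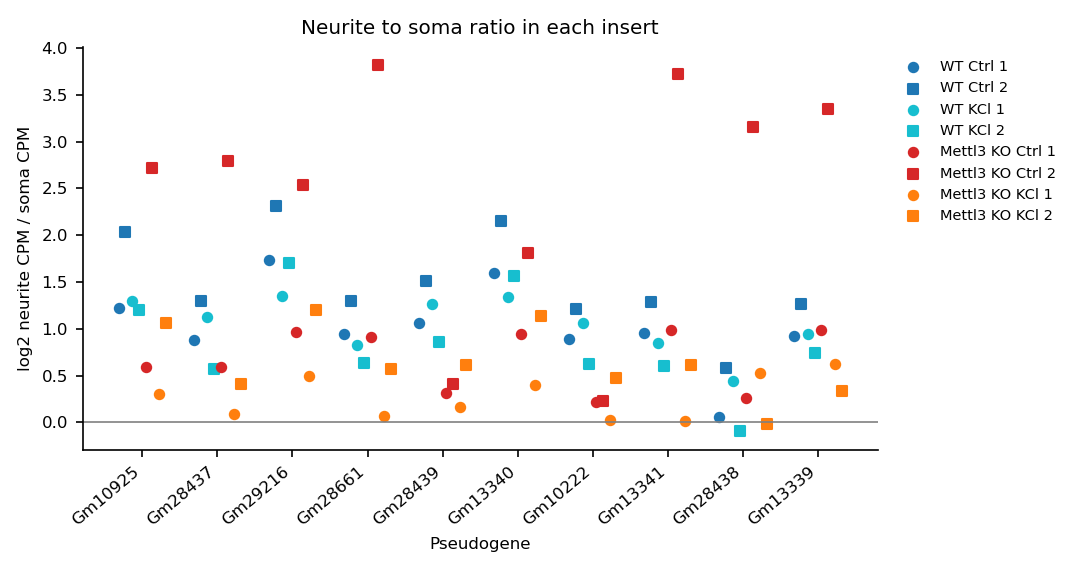
The log2 ratio of neurite to soma CPM (vertical axis) is drawn for each pseudogene (horizontal axis) in the 8 inserts, with colours for genotype and treatment, circles for replicate 1 and squares for replicate 2. All but 2 of the 80 points lie above the line at 0, and the red squares of Mettl3 KO Ctrl 2 reach 3.82 for Gm28661 but only 0.23 for Gm10222.

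Whether 2 h of KCl changed the pseudogenes was not used in choosing them and was tested. In WT, 0 of the 10 passed an adjusted p of at most 0.05 with at least 2-fold, in soma or in neurites, where the test called 1.4% of 24060 and 1.16% of 22059 genes. At an unadjusted p of at most 0.05 the count was also 0 in both (6.64% and 6.04% of all genes), and DESeq2 called 0 in both. The log2 changes were −0.10 to 0.50 in WT soma (median 0.20, all genes 0.08) and −0.32 to 0.23 in WT neurites (median −0.19, all genes −0.02). Gm10925 changed by 0.16 ± 0.65 (SE, n = 2 libraries per group) in WT soma and by −0.24 ± 0.65 (SE, n = 2 libraries per group) in WT neurites on the log2 scale, both less than their errors. With the 8 WT libraries fitted alone, an alternative added after the values were seen, 0 of the 10 were called in either compartment.

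In Mettl3 KO, 0 of the 10 passed that threshold in soma and 0 in neurites either, beside 1.17% of 23679 and 1.11% of 22199 genes, and DESeq2 called 0 in both. All 10 estimates were below 0 in both compartments, with medians of −0.42 in soma and −1.10 in neurites (all genes 0.10 and 0.08). At an unadjusted p and at least 2-fold, 2 of the 10 were lower in soma (4.89% of all genes) and 2 in neurites (3.93%). In soma these were Gm28439, at 4363 and 3245 CPM in Ctrl and 1391 and 2376 in KCl, with −1.01 ± 0.41 (SE, n = 2 per group, adjusted p = 0.262 by edgeR), and Gm10222, at 1364 and 1026 in Ctrl and 462 and 723 in KCl, with −1.01 ± 0.37 (SE, n = 2 per group, adjusted p = 0.223). For both the KCl libraries lay below the Ctrl libraries, and as copies of genes transcribed as 1 mRNA they are not separate observations. In neurites they were Gm28438, at 99.2 and 98.4 CPM in Ctrl and 23.7 and 34.2 in KCl, with −1.77 ± 0.65 (SE, n = 2 per group, adjusted p = 0.209 by edgeR), and Gm13339, at 102 and 91.7 in Ctrl and 21.4 and 40.2 in KCl, with −1.66 ± 0.62 (SE, n = 2 per group, adjusted p = 0.211). KCl-treated insert 1 had the highest glial markers, and their part in these estimates was not tested. Leaving out both libraries of that insert, the medians were −0.14 in soma and −0.64 in neurites. Leaving out Mettl3 KO soma Ctrl replicate 1 instead turned the soma median to 1.26, and leaving out replicate 2 of that group moved it to −1.18. Without both libraries of untreated Mettl3 KO insert 2 the medians were −1.19 in soma and −1.37 in neurites. Leaving out Mettl3 KO neurite KCl replicate 2 moved the neurite median to −1.84. Each of these settings leaves 1 library in a group, whose error is then taken from the replicates of the other groups.

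For Mettl3 KO against WT the threshold was an adjusted p of at most 0.05 with at least 1.5-fold. In untreated neurons 0 of the 10 passed it in soma and 0 in neurites, beside 0.189% of 23750 and 0.188% of 21814 genes, and DESeq2 called 0 in both. Median log2 differences were −0.32 in soma and −0.43 in neurites (all genes 0.02 and 0.01). Some cell-type markers differed between genotypes as well. The summed neuronal markers were at 6687 to 8639 CPM in Mettl3 KO neurites against 10991 to 13135 in WT. In soma they overlapped, at 4386 to 5358 against 5203 to 5611. The astrocyte markers were at 2008 to 2617 CPM in Mettl3 KO soma against 1202 to 1227 in WT. In neurites the astrocyte markers overlapped, at 3001 to 6843 against 2113 to 3235. Their part in the differences of the pseudogenes was not tested. At an unadjusted p, 1 of the 10 was lower in soma (4.23% of all genes) and 0 were called in neurites (6.86% either way). It was Gm28438, at 159 and 129.7 CPM in WT and 82.7 and 11.1 in Mettl3 KO, with −1.63 ± 0.65 (SE, n = 2 per group, adjusted p = 0.482 by edgeR). In the other direction, Gm28439 was at 2577 and 2400.0 CPM in WT and 4363 and 3245 in Mettl3 KO, without overlap, with 0.61 ± 0.41 (SE, n = 2 per group, adjusted p = 0.723 by edgeR). With 1 Mettl3 KO library left, and its error taken from the other groups, the soma estimates moved either way. Without Mettl3 KO soma Ctrl replicate 1, 5 of the 10 were called lower (11.2% of all genes were called) and the median was −2.21, and without replicate 2, 0 were called and the median was 0.44.

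In KCl-treated neurons 0 of the 10 passed the threshold in soma and 0 in neurites, beside 0.212% of 24038 and 0.436% of 22488 genes. DESeq2 called 2 of them lower in soma (Gm28438 and Gm13339) and 3 lower in neurites (these and Gm13340), where it called 4.06% and 11.7% of all genes. All 10 estimates were below 0 in both compartments, with medians of −0.85 and −1.33 (all genes 0.03 and 0.10). Here too neuronal markers were lower in Mettl3 KO (2045 to 5208 CPM against 6337 to 6453 in soma, 2031 to 8480.0 against 11122 to 12082 in neurites) and astrocyte markers were higher in soma (2655 to 10013 CPM against 1696 to 1732), and their part was not tested. In neurites the Mettl3 KO libraries lay below the WT libraries for 10 of 10 and in soma for 8 of 10. How many of all genes lay so, with 2 libraries per group, was not counted, so these counts do not set the pseudogenes apart from other genes. At an unadjusted p, 6 of the 10 were lower in neurites (8.69% of all genes) and 2 in soma (5.98%). The 2 in soma were Gm28438, at 128 and 144 CPM in WT and 16.4 and 34.8 in Mettl3 KO, with −2.41 ± 0.67 (SE, n = 2 per group, adjusted p = 0.193 by edgeR), and Gm13339, at 98.9 and 106 in WT and 13.9 and 31.7 in Mettl3 KO, with −2.17 ± 0.63 (SE, n = 2 per group, adjusted p = 0.206). The same 2 had the smallest p in neurites. There Gm28438 was at 174 and 134 CPM in WT and 23.7 and 34.2 in Mettl3 KO, with −2.41 ± 0.67 (SE, n = 2 per group, adjusted p = 0.109 by edgeR), and Gm13339 at 189.6 and 178 in WT and 21.4 and 40.2 in Mettl3 KO, with −2.57 ± 0.64 (SE, n = 2 per group, adjusted p = 0.0911). The other 4, Gm29216, Gm28439, Gm13340 and Gm10222, had log2 differences of −1.31, −0.97, −1.31 and −0.81. Among them are both copies of mt-Co1 and the copies of mt-Nd4 and mt-Nd4l, so the 4 are not separate observations. Leaving out both libraries of the insert with high glial markers moved the medians to −0.59 in soma and −0.87 in neurites, with 0 called. Without Mettl3 KO neurite KCl replicate 2, which leaves that insert alone in its group, 6 were called lower in neurites and 31.4% of all genes were called.

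Over both treatments, Gm28438 and Gm13339 were the pseudogenes whose Mettl3 KO libraries lay below the WT libraries of the same compartment throughout in soma. In neurites this held for 5 of the 10: these 2, Gm10925, Gm29216 and Gm13340. For how many of all genes it held was not counted, so this does not set these pseudogenes apart from other genes. Gm29216 and Gm13340 are both copies of mt-Co1 and correlated at r = 0.989 over the 16 libraries. Gm28438 was at 128 to 159 CPM in the 4 WT soma libraries and 11.1 to 82.7 CPM in the 4 Mettl3 KO soma libraries, and at 134 to 194 CPM against 23.7 to 99.2 CPM in neurites. As a share of the pseudogene counts, which does not depend on the scaling of the libraries, Gm28438 was at 0.344% to 0.464% in WT soma and 0.0953% to 0.184% in Mettl3 KO soma, whereas in neurites the ranges were 0.184% to 0.214% and 0.0764% to 0.182%. By this share Gm13339 was at 0.221% to 0.297% in WT soma and 0.0773% to 0.126% in Mettl3 KO soma. In neurites its ranges overlapped, at 0.158% to 0.243% in WT and 0.0896% to 0.170% in Mettl3 KO. Gm28438 and Gm13339 are the least counted of the 10.

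**Figure D5:**
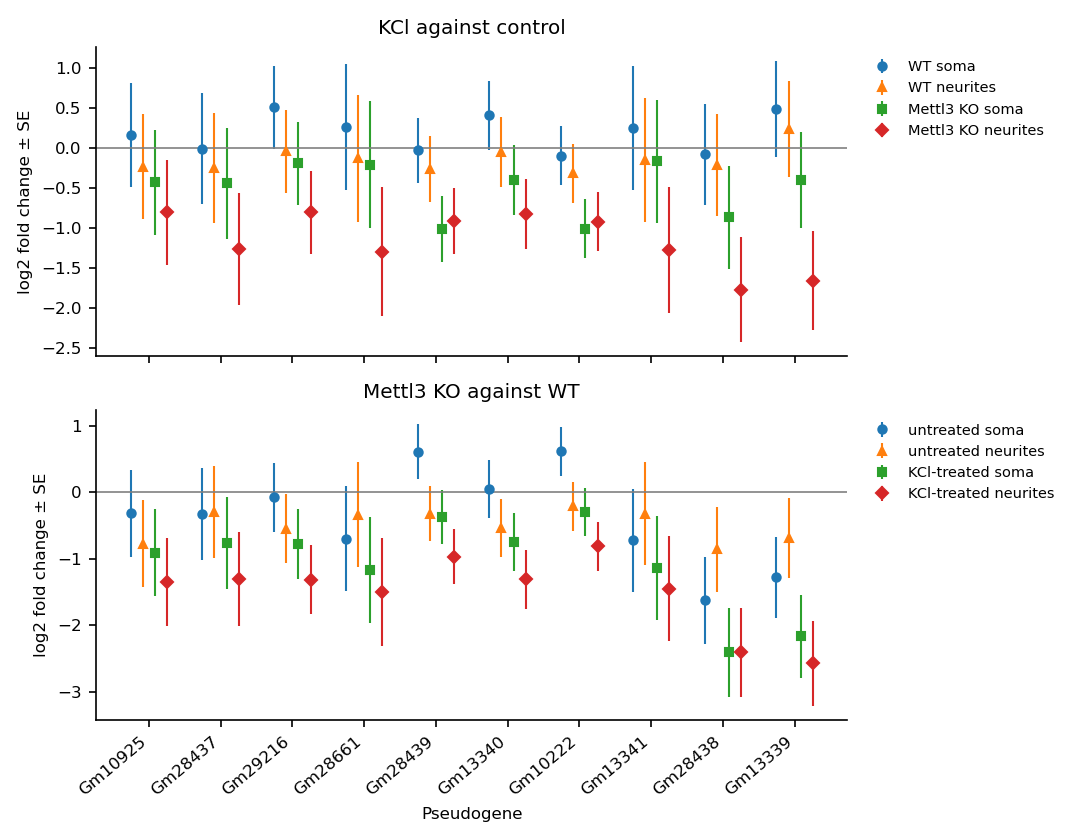
The fitted log2 fold change with its standard error (vertical axes) is drawn for each pseudogene (horizontal axis), for KCl against control in the upper panel and Mettl3 KO against WT in the lower panel, with a marker for each compartment and genotype or treatment (2 libraries per group). Estimates for WT lie between −0.32 and 0.50, and those of KCl-treated Mettl3 KO neurites against WT lie between −2.57 and −0.81.

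Whether the neurite to soma ratio itself changed was tested as a difference of ratios with 1 term per insert, at an unadjusted p of at most 0.05 and at least 1.5-fold. With KCl in WT, 0 of the 10 passed (1.22% of 23200 genes did), also with DESeq2, and the median log2 change was −0.32 (all genes −0.06). With KCl in Mettl3 KO, 4 of the 10 had a lower ratio, where 5.4% of 23099 genes did, and DESeq2 called 5 of the 10 and 8.99% of all genes. The median was −1.20 (all genes −0.02). Gm28661 went from log2 ratios of 0.92 and 3.82 to 0.07 and 0.57, a change of −2.05 ± 0.79 (SE, adjusted p = 0.680 by edgeR), and its chromosome 2 counterpart Gm13341 changed by −2.04 (adjusted p = 0.680 by edgeR). These 2 can count the same fragments and correlated at r = 0.9996 over the 16 libraries, so the 4 are not separate observations. Gm13339 changed by −1.68 (adjusted p = 0.680 by edgeR) and Gm28437 by −1.45 (adjusted p = 0.680). In all 4 the value of untreated insert 2 was far above that of untreated insert 1, and without untreated insert 1, 8 were called, as were 23.6% of all genes. Without untreated insert 2 the median change was −0.18 and 0 were called. Without KCl-treated insert 1 or 2, 0 were called as well, with medians of −0.90 and −1.30. For Gm28439 and Gm10222 the change was 0.02 and 0.03.

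Mettl3 KO against WT in untreated neurons gave lower ratios for 2 of the 10, where 1.25% of 22942 genes were lower. The 2 are copies of genes that mitochondria transcribe as 1 mRNA. They correlated at r = 0.991 over the 16 libraries and are not separate observations. They were Gm28439, with log2 ratios of 1.06 and 1.51 in WT and 0.32 and 0.41 in Mettl3 KO, a change of −0.92 ± 0.32 (SE, adjusted p = 0.926 by edgeR), and Gm10222, with 0.90 and 1.21 against 0.22 and 0.23, a change of −0.83 ± 0.31 (SE, adjusted p = 0.926 by edgeR). For both, the 2 Mettl3 KO inserts lay close together and below the 2 WT inserts. For the other 8 pseudogenes untreated Mettl3 KO insert 2 was further above insert 1 than for these 2. The median change of the 10 was 0.32 with all inserts. It was −0.59 without Mettl3 KO Ctrl insert 2 and 1.40 without insert 1. Without WT Ctrl insert 1 or 2 it was 0.02 and 0.62. Not every fit that left out 1 insert kept both calls, and a group of 1 insert takes its error from the other groups. In KCl-treated neurons 0 of the 10 passed (1.78% of 23353 genes did), also with DESeq2, with a median of −0.57 (all genes 0.03). The lowest adjusted p of the 10 in these 4 comparisons was 0.68 by edgeR, and at an adjusted p of at most 0.05 the test called 0% of all genes in each.

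Respiratory complexes are built from mitochondrially encoded and nuclear subunits, so a list of 78 nuclear genes for subunits (77 tested) and a list of 44 nuclear genes for mitochondrial transcription, RNA processing and RNA modification were set beside the pseudogenes. Of the nuclear subunits, 0 of 77 were called in any of the 8 comparisons of KCl or Mettl3 KO. At an unadjusted p, 0 of 77 were called with KCl in either genotype, beside 6.64% and 6.04% of all genes in WT soma and neurites and 12.8% and 13.6% in Mettl3 KO. Against WT, 2 were higher and 4 lower in untreated soma (8.49% of all genes either way), 1 higher in untreated neurites (6.86%), 1 higher and 3 lower in KCl-treated soma (14.2%) and 1 higher and 2 lower in KCl-treated neurites (23.6%). Sdhd, a membrane anchor of complex II, had the smallest p in both soma comparisons with WT, with log2 differences of −0.65 ± 0.23 (SE) without KCl and −0.95 ± 0.23 (SE) with KCl (adjusted p = 0.41 and 0.143 by edgeR). Atp5k, a subunit of ATP synthase, was at −1.70 and −1.85 in the same comparisons (adjusted p = 0.439 and 0.246). In neurites, Sdhc, the other anchor of complex II, was at 1.07 without and 1.26 with KCl (adjusted p = 0.355 and 0.0953), Cox7a2l, a supercomplex factor, at 0.58 without KCl, and Ndufa3, of complex I, at −1.64 with KCl. For KCl itself the 2 smallest p were those of Sdhd (0.26) and Ndufs1 (0.26) in WT soma, Sdhd (0.13) and Atp5d (0.21) in WT neurites, Uqcrc1 (−0.57) and Uqcrc2 (−0.54) in Mettl3 KO soma and Ndufv3 (−0.64) and Ndufa3 (−0.96) in Mettl3 KO neurites, as log2 changes that all missed the threshold.

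The neurite to soma ratio of the nuclear subunits was tested as for the pseudogenes, at an unadjusted p. With KCl in Mettl3 KO, 38 of 77 had a lower ratio (5.4% of all genes), with a list median of −1.59. In untreated Mettl3 KO against WT, 10 of 77 had a higher ratio (3.07% of all genes), with a median of 1.44. In WT with KCl 0 of 77 were called (median −0.21), and 0 of 77 in KCl-treated Mettl3 KO against WT (median 0.08). Of the mitochondrial RNA genes, 1 of 44 had a higher ratio in untreated Mettl3 KO and 0 changed in the other comparisons of ratios. The comparisons with calls use the untreated Mettl3 KO inserts, and the part of insert 2 in the list's counts was not tested.

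Of the mitochondrial RNA genes, Trmt61b, a methyltransferase for mitochondrial RNA, was called higher with KCl in WT soma (log2 change 2.72 ± 0.48, SE, adjusted p = 0.0136 by edgeR) and in WT neurites (2.25 ± 0.47, SE, adjusted p = 0.0426 by edgeR), and it was the only one of 44 called in any of the 8 comparisons. In Mettl3 KO neurites its change was 1.23 (adjusted p = 0.215 by edgeR), and KCl-treated Mettl3 KO differed from WT by −1.91 in soma and −1.67 in neurites (adjusted p = 0.154 and 0.109 by edgeR). Mterf1a, of a family of mitochondrial transcription termination factors, was at −1.44 with KCl in WT soma, at −1.13 in untreated Mettl3 KO soma and at −0.84 in untreated Mettl3 KO neurites against WT. Polg2, the accessory subunit of the mitochondrial DNA polymerase, was at 1.39 with KCl in WT neurites and at −0.94 in KCl-treated Mettl3 KO soma against WT. Mrm2, an rRNA methyltransferase, and Tefm, the elongation factor, were at −0.86 and −1.13 with KCl in Mettl3 KO soma, and Pde12, which removes poly(A) tails, was at 0.69 in Mettl3 KO neurites. Against WT, Grsf1 and Mterf4 were at 0.81 in untreated soma and 0.80 in untreated neurites, and Twnk, the mitochondrial DNA helicase, at 0.83 in KCl-treated neurites. Other than those of Trmt61b in WT, these log2 changes missed the threshold.

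Of the other aligned genes, Gm11407 was at −1.39 ± 0.47 (SE), Gm4076 at −1.31 ± 0.46 and Gm20594 at −0.97 ± 0.69 in KCl-treated Mettl3 KO neurites against WT (adjusted p = 0.128, 0.135 and 0.407 by edgeR), and 0 of these 3 were called in any comparison of KCl, Mettl3 KO or their ratios.

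Of 15148 genes counted 100 times or more on average, the 5 whose log2 CPM ran most like the summed pseudogenes over the 16 libraries were Mturn (Pearson r 0.979), Myl6b (0.974), the long noncoding RNA A330102I10Rik (0.970), Serp2 (0.966) and Kif1a (0.965). Over the 8 WT libraries alone their r was 0.941 to 0.991. Kif1a, a motor protein for transport along axons, was at 613 to 3524 CPM and Mturn at 36.6 to 356 CPM. These values are a description, since the libraries share compartment, genotype and depth.

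DART-seq, in which the authors marked m6A by C-to-U editing next to it, gave 18231 deposited sites. Of these, 0 lay in the 10 pseudogenes and 0 on the mitochondrial chromosome. The list holds only sites that passed the authors' filters, so this does not show that m6A is absent.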

How the data were processed

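RNA of soma and neurite fractions was sequenced in 16 libraries of 8 groups with 2 libraries each. The authors aligned paired 50-base reads to mm10 with STAR 2.7.7a and counted fragments per gene with featureCounts 2.0.1 in an Ensembl annotation. The deposited counts are whole and not normalised, and per the file headers multi-mapping fragments were counted and strand was not used. The authors left mitochondrially encoded RNAs out of their analyses. Why these genes are at 0 in the counts is not given in the sources used here. Further values were read: the deposited DESeq2 tables give each gene's mean normalised signal and its name, and the deposited m6A site list gives the edited fraction of reads at each site. The authors' fold changes and p-values in those tables hold their comparisons and were not used, nor was the DART analysis table.

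The 10 pseudogenes and the gene lists were chosen with earlier results of these data known. Counts were fitted with edgeR 4.0.16 (R 4.3.3, limma 3.58.1) by the quasi-likelihood F-test with TMM scaling and 1 coefficient per group over the 16 libraries. A gene was tested where its count averaged 10 or more in the compared libraries, all 10 pseudogenes passed in each comparison, and p-values were adjusted by Benjamini-Hochberg over all genes tested. Changes in the neurite to soma ratio were fitted with 1 term per insert. The thresholds were 2-fold for KCl and 1.5-fold for Mettl3 KO, with an adjusted p of at most 0.05, and 1.5-fold with an unadjusted p of at most 0.05 for changes in ratio. Correlations use log2(CPM + 1). Mitochondrial DNA was aligned to annotated exons with blastn 2.17.0 and at least 100 aligned bases. Totals of 33789183 to 71394235 counts per library leave counting error small beside the spread between the 2 libraries of a group, and reads carry no molecular identifiers.

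Besides the 10 pseudogenes, the genes named were the 3 other aligned genes with the highest mean count, the 2 genes of each list with the smallest p in each comparison of KCl or Mettl3 KO, the 5 genes averaging 100 counts or more that were most correlated with the summed pseudogenes, and Mettl3. Alternatives were DESeq2 1.42.0, other scalings and filters, fewer libraries in the fit, a replicate block, an adjusted p for the ratios, and leaving out each library. Soma and neurite libraries with the same number were taken as 1 insert. The study's methods state that control and KCl neurons came from the same litter, but not which numbers share one, so the comparisons of KCl were fitted without pairing.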

Additional observations from a re-analysis of the deposited data

Results flagged for a closer look

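The neurite to soma ratio changed with KCl in Mettl3 KO for 4 of the 10 pseudogenes, by a test of the difference between the ratios. The log2 changes were −1.45 for Gm28437, −2.05 for Gm28661, −2.04 for Gm13341 and −1.68 for Gm13339. They were singled out at an unadjusted p by edgeR, where 5.4% of all genes were lower, and none passed adjustment. Gm28661 and Gm13341 can count the same fragments, so the 4 are not separate observations. Without untreated Mettl3 KO insert 2, without either KCl-treated Mettl3 KO insert or without the terms for inserts, 0 of the 10 were called. In untreated neurons the ratio differed between Mettl3 KO and WT by −0.92 for Gm28439 and −0.83 for Gm10222, by the same test (1.25% of all genes were lower), and 0 were called without WT Ctrl insert 2 or without the terms for inserts. Gm28439 and Gm10222 are copies of genes transcribed as 1 mRNA, so they are not separate observations either. Whether the KCl change itself differed between Mettl3 KO and WT was not tested.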

How the results depend on the processing

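With 2 libraries per group, 1 library can decide a count, and a group left with 1 library is assumed to vary like the other groups. Leaving out 1 library at a time, 0 to 2 of the 10 were called for KCl in Mettl3 KO soma, 0 to 3 for KCl in Mettl3 KO neurites, 0 to 5 for Mettl3 KO against WT in untreated soma and 0 to 6 in KCl-treated neurites. For the ratios, the range was 0 to 8 for the KCl change in Mettl3 KO, 0 to 8 for Mettl3 KO against WT in untreated neurons and 0 to 1 in KCl-treated neurons. The median log2 neurite to soma ratio ranged from 0.53 to 3.05 in Mettl3 KO Ctrl and from −0.21 to 0.94 in Mettl3 KO KCl, where −0.21 is the value without Mettl3 KO neurite KCl replicate 2. Without a filter beyond 1 count, 5 were called for KCl in Mettl3 KO neurites (5.06% of all genes), 2 for Mettl3 KO in untreated soma (1.19%), 4 in KCl-treated soma (4.8%), 8 in KCl-treated neurites (7.87%), and for the ratios 8 for KCl in Mettl3 KO (5.99%), 7 for Mettl3 KO in untreated neurons (5.65%) and 4 in KCl-treated neurons (2.07%). DESeq2 called 2 in KCl-treated soma and 3 in KCl-treated neurites for Mettl3 KO against WT (4.06% and 11.7% of all genes). Leaving out both libraries of untreated Mettl3 KO insert 2, chosen after seeing the data, gave 1 and 2 there (0.462% and 0.992% of all genes). For the ratio changes with calls, 0 were called without the replicate block and 0 by the adjusted p in either, and 1 for KCl in Mettl3 KO when other libraries were left out of the fit. Same-numbered control and KCl libraries deviated together with correlations of 0.05 and −0.06 in WT soma and neurites and 0.13 and 0.17 in Mettl3 KO. A number was not taken to pair control with KCl. For soma and neurites they were −0.12 and 0.04 in WT and 0.05 and 0.89 in Mettl3 KO (Ctrl and KCl). A number was taken to pair soma with neurites because the study paired the fractions of an insert. Outside KCl-treated Mettl3 KO these correlations do not show that pairing. The replicate block changed no other call: 0 of the 10 were called with it in the 8 comparisons of KCl and Mettl3 KO. With library totals alone the WT Ctrl median log2 ratio was 0.80, while the median of all genes was −0.33. At least 300 aligned bases left 22 other aligned genes. Signs turned without Mettl3 KO soma Ctrl replicate 1 for KCl in Mettl3 KO soma (Gm28661 2.56, Gm13341 2.51, Gm28438 1.22), whose lowest values, without replicate 2 of that group, were −1.09, −1.05 and −1.68, and without untreated Mettl3 KO insert 2 for the KCl change in ratio (Gm10925 0.0604) and the Mettl3 KO change in untreated neurons (Gm28661 −0.14, Gm13341 −0.0679, Gm13339 −0.0351). These are not all: up to 5 of the 10 turned in other settings, and in these 3 settings 8 of the 10 (all but Gm28439 and Gm10222), 2 (also Gm10222) and 5 (also Gm10925 and Gm28437) had the other sign. Beyond fewer libraries or more genes tested, the cause was not tested.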
